A study of Rattus norvegicus with 4 samples.

Results

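The genes described here are 10 known targets of the transcription factor p53 that act in growth arrest, DNA repair, cell death and stress control. They are Cdkn1a, Btg2, Ccng1, Mdm2, Fas, Perp, Aen, Trim35, Xpc and Sesn1. They were chosen by name, with earlier results of these data known. Each had 1 row among the 21648 Ensembl gene identifiers of the count table. RNA was sequenced from primary neurons of E18 rat cortex, with 2 libraries from topotecan cultures and 2 from cultures given DMSO, the control. Topotecan traps topoisomerase I on nicked DNA, and it was used with the aim of lowering the expression of long genes. All cultures came from tissue of a commercial supplier (BrainBits), were plated in STEMdiff Neural Induction Medium and were moved after a day to BrainPhys medium with SM1 supplement. Rat strain, topotecan dose and duration were not given in the sources used here, and the labels name no sort that would leave neurons alone in the culture.

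p53 is held low in unstressed cells by the ubiquitin ligase MDM2. After DNA damage, kinases such as ATM and CHK2 stabilise p53, which then binds DNA and raises the transcription of its target genes. Some targets halt the cell cycle (Cdkn1a, Btg2), some repair DNA (Xpc), some promote cell death (Fas, Perp, Aen), some limit oxidative and growth stress (Sesn1), and some shut the response off again (Mdm2, Ccng1). Topoisomerase poisons are a classical way to activate p53, in neurons as in dividing cells.

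p53 binds DNA as a tetramer at a pair of similar decamers that share the core CNNG. The decamer consensus was searched on both strands in the promoter windows of RefSeq (build GRCr8), which run from 250 bases before to 50 bases after the annotated start. 9 of the 10 genes matched a window, all but Trim35. An exact decamer stood in 4 of the 9 windows, those of Cdkn1a, Ccng1, Aen and Sesn1, against 7.98% of 33469 promoter windows. A pair of exact decamers spaced 0 to 13 bases apart stood in 0 of the 9 windows, against 0.0598% of all windows. Adjacent decamers with both cores kept and at most 2 mismatches over 20 bases stood in 3 of the 9, against 0.335% of all windows, a limit chosen after the exact searches. These 3 windows are shown because they hold the nearest matches to a p53 element among the genes described, with the 20 bases in capitals: Cdkn1a (chr20:7150682-7150981, plus strand), Ccng1 (chr10:25684827-25685126, minus strand) and Aen (chr1:142224283-142224582, plus strand), each read 5′ to 3′ on the strand of the gene.
Cdkn1a: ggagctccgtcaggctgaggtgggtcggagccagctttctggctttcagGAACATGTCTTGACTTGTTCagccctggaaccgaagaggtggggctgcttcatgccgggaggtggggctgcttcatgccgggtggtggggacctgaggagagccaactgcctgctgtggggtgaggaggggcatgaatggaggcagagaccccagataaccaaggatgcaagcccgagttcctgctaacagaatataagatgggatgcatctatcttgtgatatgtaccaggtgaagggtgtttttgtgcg
Ccng1: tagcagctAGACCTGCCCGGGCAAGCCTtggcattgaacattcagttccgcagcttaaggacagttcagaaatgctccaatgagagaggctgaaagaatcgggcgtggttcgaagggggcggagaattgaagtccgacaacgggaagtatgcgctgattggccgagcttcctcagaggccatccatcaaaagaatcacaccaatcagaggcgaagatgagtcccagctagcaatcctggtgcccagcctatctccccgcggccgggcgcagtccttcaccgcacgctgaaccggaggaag
Aen: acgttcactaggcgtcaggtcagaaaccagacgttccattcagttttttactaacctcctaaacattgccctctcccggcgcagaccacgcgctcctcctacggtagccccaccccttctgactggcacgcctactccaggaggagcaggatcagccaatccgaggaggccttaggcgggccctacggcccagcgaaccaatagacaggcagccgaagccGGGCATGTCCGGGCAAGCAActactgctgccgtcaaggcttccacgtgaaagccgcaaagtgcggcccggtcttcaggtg
The match began 201 bases before the start in Cdkn1a, 242 bases before it in Ccng1 and 30 bases before it in Aen, with 1, 1 and 2 mismatches. The match is a description of letters, and binding was not measured. Of the genes that carry these matches Cdkn1a fell, Ccng1 did not pass the test and Aen rose.

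Topotecan was followed by a mixed pattern. 6 of the 10 genes rose (Perp, Aen, Trim35, Xpc, Sesn1 and Mdm2), by factors between 1.20 and 1.90. Cdkn1a and Fas fell, to 0.380 and 0.0596 of the DMSO level in the fit, and Btg2 and Ccng1 did not pass. The test was edgeR's quasi-likelihood test across 12162 genes with Benjamini-Hochberg adjusted p under 0.05, by which 16.2% of all tested genes rose and 23.5% fell. The median log2 fold change was 0.32 over the 10 genes and -0.01 over all tested genes. Since the 10 genes were chosen with earlier results known, their comparison with all genes is a description and not a test. All 10 passed the filter on low counts, Fas through its DMSO libraries alone. In 7 of the 10 genes both topotecan libraries lay above both DMSO libraries and in 2 both lay below, where 33.7% and 36.9% of all tested genes did so. Whether the libraries of a group are separate cultures was not stated, so p-values measure only how far these samples spread, and that spread may be technical.

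**Figure D1:**
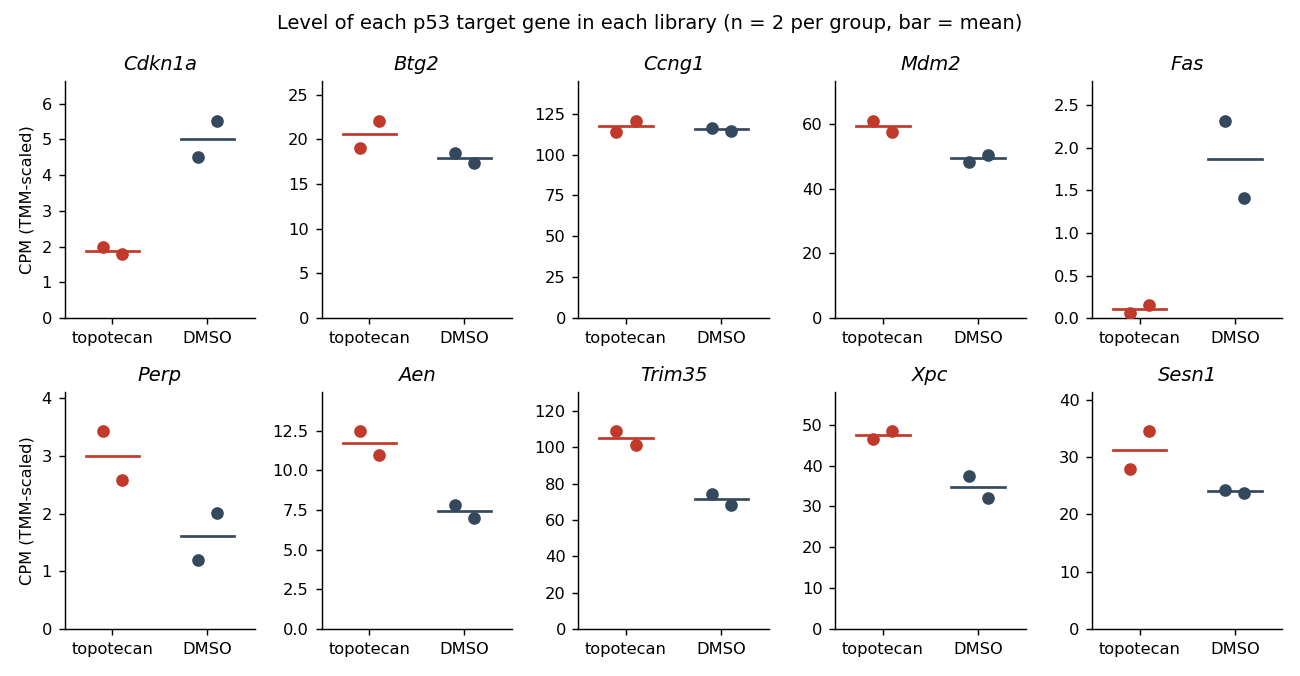
Level of each of the 10 genes in each library in CPM after TMM scaling, topotecan left of DMSO, with points for the 2 libraries of a group and a bar for their mean. Cdkn1a and Fas lie lower in both topotecan libraries, Ccng1 overlaps, and Perp, Aen, Trim35, Xpc, Sesn1, Mdm2 and Btg2 lie higher in both, although Btg2 did not pass the test.

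Depth lay between 22957786 and 31181382 counts per library. Neuronal markers were abundant throughout, with 24 listed genes summing to 37784 and 38807 CPM (counts scaled to library size) in topotecan and 34333 and 31516 CPM in DMSO. Of these 24 genes 8 rose and 4 fell, where 16.2% of all tested genes rose and 23.5% fell. Glial and progenitor genes were far lower in topotecan. All 15 astrocyte and all 14 oligodendrocyte lineage markers fell, and 8 of 9 tested progenitor markers did. Summed astrocyte markers stood at 119 and 129 CPM in topotecan, against 4706 and 4765 CPM in DMSO, and summed oligodendrocyte markers at 138 and 124 CPM, against 4070 and 4385 CPM. Summed progenitor markers stood at 39.8 and 37.6 CPM in topotecan, against 516 and 512 CPM in DMSO. Of their markers Sox10 was at 0 counts in both topotecan libraries, against 318 and 260 counts in DMSO. So was Hes5, against 5 and 3 counts in DMSO. Sox10 passed the filter on low counts through its DMSO libraries alone. A marker that passes in this way could hardly be called other than lower, and the counts of falls include such markers. In these bulk samples, fewer cells of a type and less RNA per cell cannot be told apart.

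Among the genes of growth arrest, Cdkn1a (ENSRNOG00000000521) was lower and Btg2 was not called. Ccng1, one of the genes that shut the response off, was not called either. Cdkn1a encodes p21, the inhibitor of cyclin-dependent kinases through which p53 stops cells before DNA replication. Cdkn1a had 1.99 and 1.78 CPM in topotecan, from 61 and 45 counts, against 4.50 and 5.52 CPM in DMSO, from 124 and 129 counts. Both topotecan libraries lay below both DMSO libraries, and the topotecan level was well under that of either DMSO library. The log2 fold change was -1.40 (SE 0.22, edgeR adjusted p = 0.000227). It lay between -1.62 and -1.24 under the 11 alternative settings and passed in all of them.

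Btg2 (ENSRNOG00000003300), which encodes a regulator of messenger RNA turnover that slows proliferation, had 19.1 and 22.1 CPM in topotecan, against 18.5 and 17.3 CPM in DMSO. The topotecan libraries lay above the DMSO libraries, with a gap between the nearest libraries that was small beside the spread within topotecan. Its log2 fold change of 0.20 (95% interval -0.08 to 0.48, edgeR adjusted p = 0.254) did not pass. Ccng1 (ENSRNOG00000003256) encodes cyclin G1, an atypical cyclin that recruits a phosphatase to MDM2. It had 114 and 121 CPM in topotecan, against 116 and 115 CPM in DMSO. The groups overlapped, and the log2 fold change was 0.02 (95% interval -0.16 to 0.20, edgeR adjusted p = 0.861). An increase of the size seen for Aen lies outside both intervals, and one of the size seen for Mdm2 lies outside that of Ccng1 alone. The width of these intervals rests in part on spread borrowed from other genes.

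The feedback gene Mdm2 (ENSRNOG00000006304) was slightly higher, the smallest of the 6 rises. It had 61.0 and 57.6 CPM in topotecan, against 48.3 and 50.4 CPM in DMSO. The groups did not overlap, and the log2 fold change was 0.27 (SE 0.10, edgeR adjusted p = 0.0446). The call was lost under 6 of 11 settings, among them the counts without topotecan replicate 1 (0.23, adjusted p = 0.312) and without topotecan replicate 2 (0.31, adjusted p = 0.142).

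The 4 genes linked to cell death went different ways, with Fas far lower and Perp, Aen and Trim35 higher. Fas (ENSRNOG00000019142) encodes the death receptor that binds Fas ligand and starts the caspase-8 pathway. It had 2 and 4 counts in topotecan, against 64 and 33 counts in DMSO, or 0.0653 and 0.159 CPM against 2.32 and 1.41 CPM. The gene was near the limit of detection in topotecan and low in DMSO. Fas passed the filter on low counts through its DMSO libraries alone, so it could hardly be called other than lower. The log2 fold change was -4.07 (SE 0.53, edgeR adjusted p = 3.97e-05), and it lay between -4.75 and -3.52 under the 11 settings, all of which passed. From the summed counts, 6 in topotecan against 97 in DMSO, Fas was 17.7-fold lower in topotecan, with an exact 95% binomial interval from 7.86 to 49.5 that covers counting error only.

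Perp (ENSRNOG00000011994), a membrane protein gene of the PMP22 family that p53 uses in cell death, rose most. It had 3.43 and 2.58 CPM in topotecan, against 1.20 and 2.01 CPM in DMSO, from 105 and 65 counts against 33 and 47 counts. The groups did not overlap, but the spread within each was wide, and the log2 fold change of 0.93 had an SE of 0.29 (edgeR adjusted p = 0.0218). Without DMSO replicate 1 it was 0.60 (adjusted p = 0.134), and without topotecan replicate 1 it was 0.70 (adjusted p = 0.138).

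Aen (ENSRNOG00000018421) encodes a nuclease that degrades DNA and RNA in dying cells. It had 12.5 and 11.0 CPM in topotecan, against 7.83 and 7.02 CPM in DMSO. Both topotecan libraries were well above both DMSO libraries, with a log2 fold change of 0.66 (SE 0.16, edgeR adjusted p = 0.0045). Trim35 (ENSRNOG00000009449), a gene of the tripartite motif family of ubiquitin ligases, had 109 and 101 CPM in topotecan, against 74.4 and 68.3 CPM in DMSO. Its groups were also well separated, with a log2 fold change of 0.56 (SE 0.09, edgeR adjusted p = 0.000298). Aen and Trim35 were the only rises that passed under all 11 settings.

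The repair gene Xpc and the stress gene Sesn1 rose by smaller factors. Xpc (ENSRNOG00000008274) encodes the protein that finds distorted DNA and starts nucleotide excision repair. It had 46.4 and 48.4 CPM in topotecan, against 37.5 and 32.1 CPM in DMSO. The groups did not overlap, and the log2 fold change was 0.44 (SE 0.11, edgeR adjusted p = 0.00643). Sesn1 (ENSRNOG00000000302), a sestrin gene whose product restrains the growth kinase complex mTORC1, had 27.9 and 34.5 CPM in topotecan, against 24.3 and 23.8 CPM in DMSO. Topotecan replicate 2 stood highest and topotecan replicate 1 lay nearer to the DMSO libraries than to it. The log2 fold change was 0.37 (SE 0.13, edgeR adjusted p = 0.0319), and without topotecan replicate 2 it was 0.22 (adjusted p = 0.405).

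**Figure D2:**
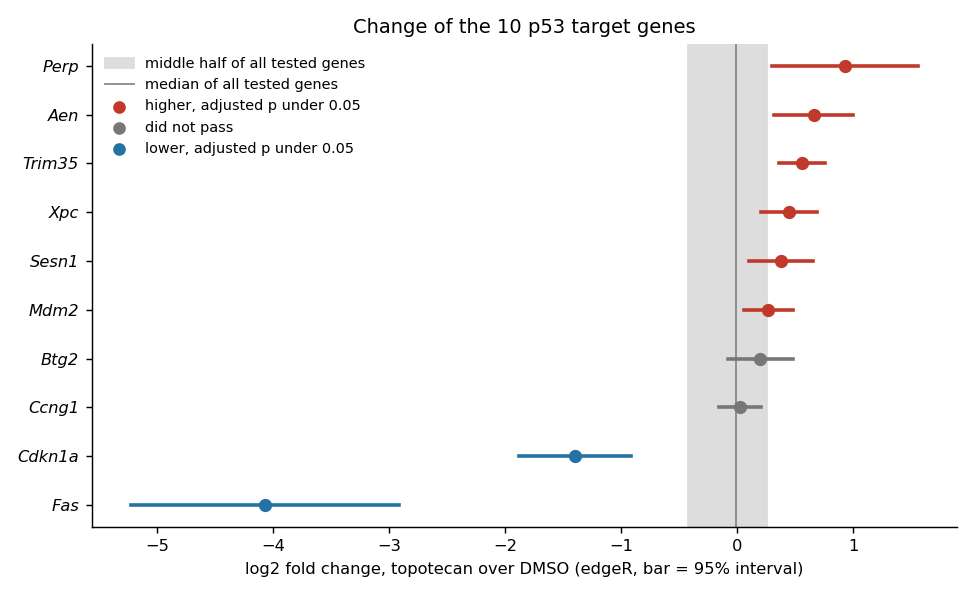
Log2 fold change of the 10 genes, topotecan over DMSO, from edgeR with 95% intervals, ordered by size. Grey shading spans the interquartile range of all tested genes, from -0.43 to 0.26, and the line is their median at -0.01; 6 genes lie above the line and passed, Btg2 and Ccng1 did not pass, and Cdkn1a (-1.40) and Fas (-4.07) lie far below.

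The size of the rises depended on what the libraries were scaled to. Summed neuronal markers were 1.16-fold higher in topotecan than in DMSO. With the libraries scaled to these 24 neuronal genes, the median log2 fold change of all tested genes moved to -0.23 from -0.01, and 88.4% instead of 59.2% of all calls were falls. Under that scaling 2 of the 10 genes rose, Aen by 0.44 (adjusted p = 0.0491) and Trim35 by 0.34 (adjusted p = 0.0207), where 4.38% of all genes rose and 33.3% fell. The log2 fold changes of Perp, Xpc, Sesn1 and Mdm2 were then 0.71, 0.23, 0.15 and 0.05 and did not pass. Those of Btg2 and Ccng1 turned to -0.02 and -0.20 and did not pass either, and Cdkn1a and Fas fell as before. Such rescaling shifts all genes by nearly the same amount. Distances from the median of all genes are therefore kept by construction and say nothing about whether the rises hold. Perp stood 0.94 and 0.93 above that median, Aen 0.67 and 0.67, and Mdm2 0.28 and 0.27, under TMM and under neuronal scaling.

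**Figure D3:**
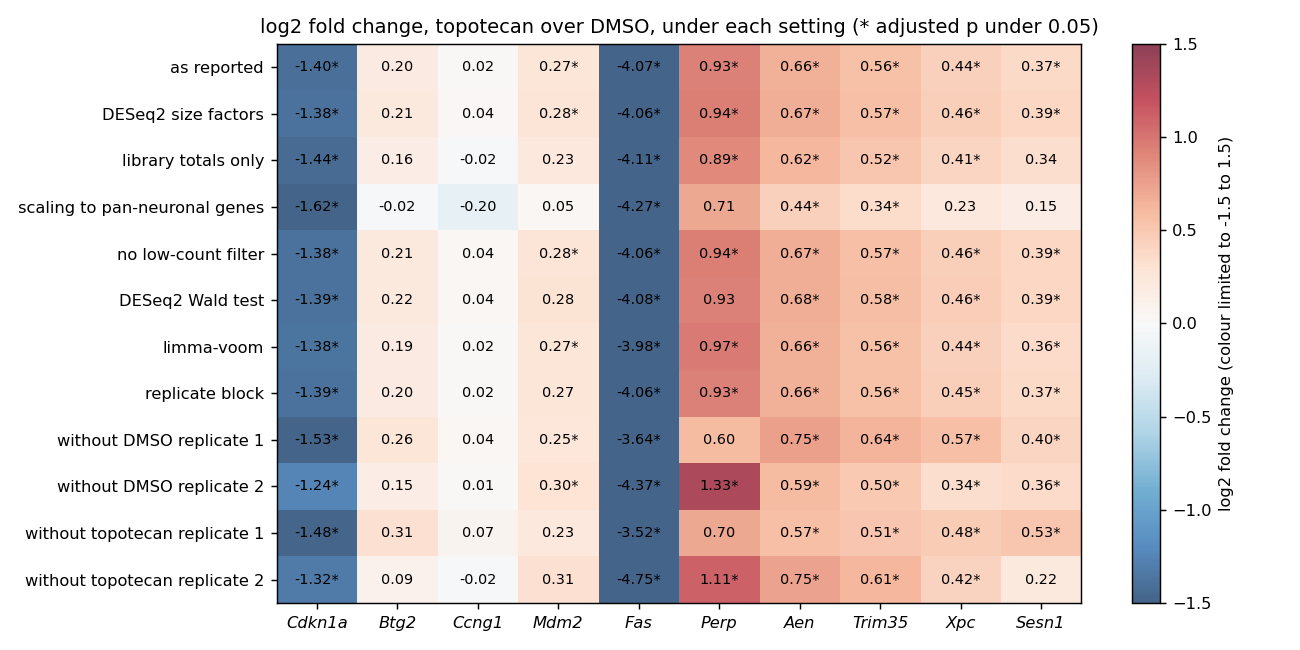
Log2 fold change of each gene, topotecan over DMSO, with each row a setting and an asterisk where the edgeR, DESeq2 or limma adjusted p was under 0.05. Cdkn1a, Fas, Aen and Trim35 carry the asterisk in every row, Mdm2 loses it in 6 of the 11 alternatives and Perp in 4.

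The deep falls of Cdkn1a and Fas occurred in the libraries in which glial and progenitor genes were lowest. In topotecan replicates 1 and 2 Cdkn1a stood at 39.7% and 35.6% of its DMSO mean and Fas at 3.50% and 8.50%. Summed astrocyte markers stood at 2.50% and 2.72% of theirs, oligodendrocyte markers at 3.26% and 2.93%, and progenitor markers at 7.74% and 7.32%. Fas lay within the range of the 3 sums in topotecan replicate 1 and above it in topotecan replicate 2, and Cdkn1a kept a larger share of its DMSO level than any of the 3 sums. The part of these cells in either fall was not tested. Microglial markers were near 0 in every library, where 6 of 11 listed markers were at 0 in all 4 libraries and none reached the limit for a test. Of the endothelial markers 1 of 2 tested fell, and of the fibroblast and mural cell markers 3 of 4 tested fell and 1 rose. Among all tested genes 16.2% rose and 23.5% fell.

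**Figure D4:**
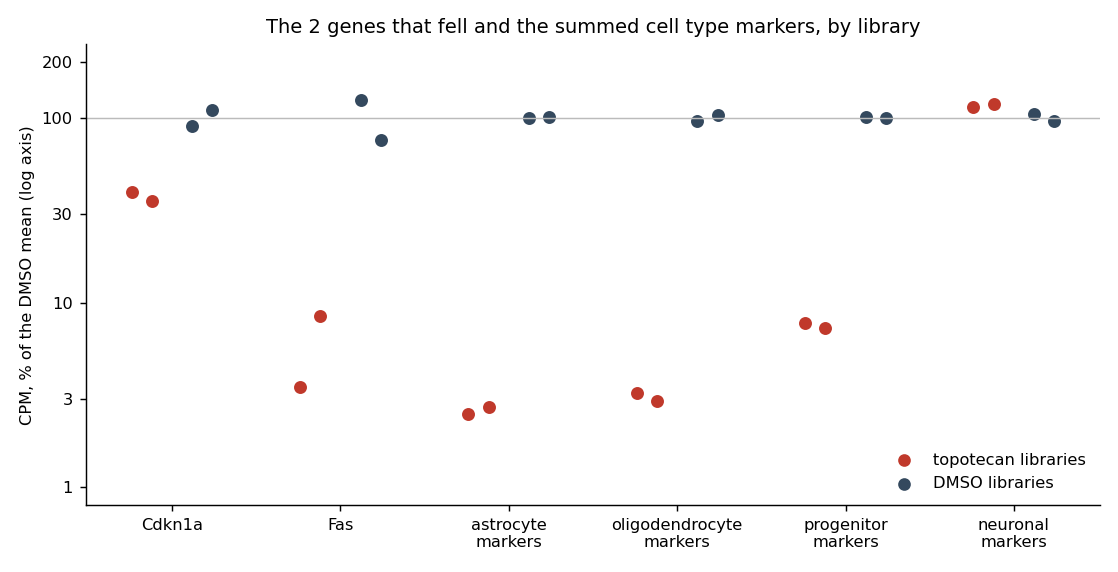
Level of Cdkn1a, Fas and the summed marker genes of 4 cell types in each library, as a percentage of the mean of the DMSO libraries on a log axis, with topotecan points left of DMSO points. Astrocyte, oligodendrocyte and progenitor sums lie between 2.50% and 7.74% in topotecan, Fas at 3.50% and 8.50%, Cdkn1a at 39.7% and 35.6%, and neuronal markers at 115% and 118%.

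The 10 genes differed widely in length. Their spans in RefSeq GRCr8 ran from 3.76 kb (Btg2) to 93.1 kb (Sesn1), with a median of 14.5 kb, while the median of tested genes was 25.9 kb. None reached 100 kb, as 1885 tested genes did. Among the 9837 tested genes under 100 kb, 18.6% rose and 20.2% fell. The shortest member, Btg2, did not pass, and the longest, Sesn1, rose. A relation of span to change among the 10 genes was not tested.

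Of 17 tested regulators and partners of p53, 2 rose and 4 fell (median log2 fold change -0.19), where 16.2% of all tested genes rose and 23.5% fell, so neither count stands out. These values are RNA, and no protein was measured. Hipk2, a kinase that phosphorylates p53, fell by 1.64 on the log2 scale (SE 0.12). Chek2, the checkpoint kinase CHK2, fell by 1.11 (SE 0.26), and Rffl, a ubiquitin ligase gene, fell by 0.89 (SE 0.18). Ppm1d, the phosphatase WIP1 that p53 induces and that switches off damage signalling, rose. It had 12.2 and 10.9 CPM in topotecan, against 6.09 and 8.05 CPM in DMSO (log2 fold change 0.71, SE 0.17, edgeR adjusted p = 0.00481). Mdm4, the partner of MDM2, did not pass (log2 fold change -0.19, 95% interval -0.51 to 0.12) and is named for its kinship with Mdm2, outside the rule for named genes.

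Other p53 targets were counted against all tested genes, of which 16.2% rose and 23.5% fell. Of 62 tested targets in a list of apoptosis genes linked to p53 and a list of other targets, 9 rose, 20 fell and 33 did not pass, with a median log2 fold change of -0.18. Many of these genes are known as targets mainly from human cells. In the apoptosis list 2 of 12 rose and 4 fell (median 0.03). Bid, which links caspase-8 to mitochondria, rose by 0.39 (SE 0.10), a call lost under scaling to neuronal genes (adjusted p = 0.288), while Casp6, an executioner caspase gene, had 0.294 and 0.238 CPM in topotecan against 5.26 and 5.18 CPM in DMSO. Phlda3, an inhibitor of the kinase AKT, had 3 and 4 counts in topotecan against 15 and 19 counts in DMSO. It fell by 2.38 (SE 0.59), and the call was lost with DESeq2 (adjusted p = 0.0728), without DMSO replicate 2 (adjusted p = 0.0595) and without topotecan replicate 1 (adjusted p = 0.0646). Casp6 and Phlda3 passed the filter on low counts through their DMSO libraries alone. So did Fam210b and Rrad among the falls in the list of other targets, which are named outside the rule for named genes. In the list of other targets 7 of 50 rose and 16 fell (median -0.18). The 4 with the smallest p all fell, namely Abhd4, a lipid hydrolase gene (-2.19, SE 0.08), Crot, an acyl transferase gene of peroxisomes (-3.24, SE 0.14), the growth factor gene Tgfa (-2.39, SE 0.15) and Cyfip2, a regulator of actin (-0.68, SE 0.09). The glial sums fell in the same libraries, and their part in these falls was not tested.

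**Figure D5:**
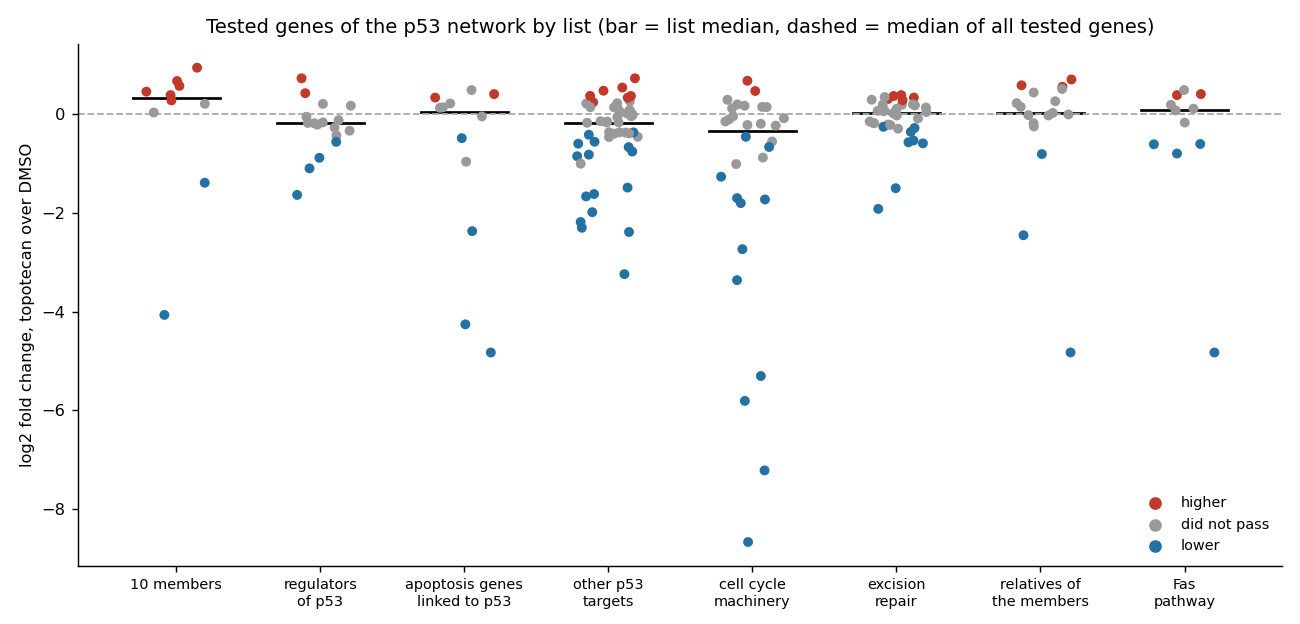
Log2 fold change, topotecan over DMSO, of each tested gene in the 10 members and 7 lists around them, with a bar at each list's median and colour for genes that rose, fell or did not pass. The cell cycle list reaches lowest, with a median of -0.36, and the excision repair list has a median of 0.02 with Pold1 and Pole lowest. The lowest gene of the cell cycle list, Cdkn2c, had 0 counts in both topotecan libraries.

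Genes of the cell cycle machinery were also listed, since p21 inhibits cyclin-dependent kinases. Of 30 tested genes for cyclins, their kinases and inhibitors, retinoblastoma and E2F family proteins and related factors 2 rose and 12 fell (median -0.36), where 16.2% of all tested genes rose and 23.5% fell. Cdk2, a kinase that p21 inhibits, had 9 and 0 counts in topotecan against 288 and 186 counts in DMSO. Foxm1, a transcription factor of dividing cells, fell by 2.74 (SE 0.31). The mitotic kinase gene Cdk1 had 16 and 12 counts in topotecan against 590 and 432 counts in DMSO, and the cyclin D1 gene Ccnd1 had 7 and 3 counts in topotecan against 874 and 527 counts in DMSO. Cdk2 and Ccnd1 passed the filter on low counts through their DMSO libraries alone. So did Cdkn2c, Mybl2 and Rbl1 among the genes that fell, which are named outside the rule for named genes. Genes that pass in this way could hardly be called other than lower, and the count of falls includes them. Cdk1, Cdk2, Ccnd1, Foxm1 and Cdkn1a were all lower in the topotecan libraries, in which the progenitor markers stood at 7.74% and 7.32% of their DMSO mean. The part of progenitor cells in these falls was not tested.

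Around Xpc, excision repair genes rose and fell about as often as all tested genes. Of 34 tested members 5 rose and 8 fell (median 0.02), against 16.2% and 23.5% of all tested genes. Ccnh, a subunit of the kinase within the repair and transcription factor TFIIH, rose by 0.36 (SE 0.08), and Ercc8, which acts where repair is coupled to transcription, rose by 0.37 (SE 0.08). The replicative polymerase genes Pold1 and Pole fell by 1.51 (SE 0.22) and 1.93 (SE 0.35). Both rises were lost under scaling to neuronal genes, with adjusted p of 0.324 for Ccnh and 0.279 for Ercc8, and that of Ercc8 was lost without topotecan replicate 1 (adjusted p = 0.0971).

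Partners of Fas were measured too. Of 11 tested genes of its pathway 2 rose and 4 fell (median 0.07), where 16.2% of all tested genes rose and 23.5% fell. Tnfrsf1a, the related receptor for tumour necrosis factor, had 1.37 and 0.634 CPM in topotecan against 30.1 and 28.7 CPM in DMSO. Fadd, the adaptor that joins Fas to caspase-8, had 4.14 and 2.97 CPM in topotecan against 6.45 and 6.08 CPM in DMSO. It fell by 0.81 (SE 0.20, edgeR adjusted p = 0.00656), and the adjusted p was 0.0682 without topotecan replicate 2. Daxx, a Fas-binding chromatin protein gene, rose by 0.37 (SE 0.11), and the call was lost under neuronal scaling (adjusted p = 0.369) and without topotecan replicate 1 (adjusted p = 0.183). Fas ligand, Faslg, had 4 and 13 counts in topotecan against 13 and 5 counts in DMSO. Both receptors were low in topotecan, and the ligand overlapped between the groups.

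Of 17 tested relatives of the 10 genes 3 rose and 3 fell (median 0.01), near the 16.2% and 23.5% of all tested genes. Sesn3 fell by 0.82 (SE 0.14), while Sesn1 rose. Pmp22, the myelin protein gene to whose family Perp belongs, had 92 and 64 counts in topotecan against 2092 and 1928 counts in DMSO, and Emp2 of the same family fell by 2.46 (SE 0.34). Trim32, a ubiquitin ligase gene of neurons, rose by 0.69 (SE 0.08) to 745 and 785 CPM in topotecan, against 449 and 499.7 CPM in DMSO. Differences between relatives were not tested.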

How the data were processed

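The deposited data are whole-number counts per gene, in 1 table that covers the 4 libraries. STAR and edgeR are named in the submitters' processing notes, with no version. Build, annotation, counting tool and strand setting were not given in the sources used here, so overlapping genes can share reads. Per the labels' protocols the library kit was one for small RNA, while 96.3% to 97.0% of counts fell on protein-coding genes.

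The table held 22641 rows for 21648 identifiers. 792 of them were on more than 1 row with equal counts and were kept once, and 14 rows had no gene name. Chi-square between replicates, per degree of freedom, came to 9.34 in topotecan and 13.0 in DMSO (genes whose counts summed to 10 or more), so each library was kept as 1 sample. The test was edgeR's quasi-likelihood test (edgeR 4.0.16, R 4.3.3) with treatment as the only term, TMM scaling and filterByExpr (minimum count 10, total 15), which kept 12162 genes with 2 residual degrees of freedom. Benjamini-Hochberg adjustment ran over all of them (threshold 0.05). The SE was derived from the F statistic as the size of the log2 fold change over its square root. CPM are TMM-scaled. The fit was checked on simulated counts. DESeq2 (1.42.0) and limma (3.58.1) were alternatives.

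The 10 genes and 14 gene lists, 7 of them cell type markers, were chosen with earlier results of these data known, and lists overlap. Named are all 10 genes and up to 4 called genes of smallest p per list; the rule also names the most abundant cell type markers, which are given as sums, and 1 gene that is not reported here. Listed genes without a matching symbol in the table were not used here. Gene levels were not set against each other, since transcript lengths were not used. Spans come from RefSeq GRCr8 by Entrez number or symbol (96.4% of tested genes).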

Additional observations from a re-analysis of the deposited data

How the results depend on the processing

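Under the 11 alternative settings, the 10 genes gave 110 values. Of these 96 kept their side of the threshold, 14 lost the call and none reversed a call. Among the 96 are values of Ccng1 and Btg2 that changed sign without passing. Of 473 values of 43 other named genes 460 kept their side of the threshold and 13 lost the call. Scaled to pan-neuronal genes, 533 genes rose instead of 1970 and 2 of the 10 instead of 6. Leaving out 1 library in turn gave between 1208 and 2470 genes that rose, lowest without topotecan replicate 1 and at 1260 without topotecan replicate 2, and between 4 and 6 of the 10. The 2 falls passed under all 11 settings. Mdm2 did not pass with library totals (adjusted p = 0.0836) or DESeq2 (0.05), nor did Perp with DESeq2 (0.102) or Sesn1 with library totals (0.053). With the replicate number as a block, 1822 genes rose and 2746 fell, and 5 of the 10 rose and 2 fell, with Mdm2 lost (adjusted p = 0.0719). The labels do not say what the numbers mark, and replicate differences in topotecan and DMSO correlated at r = -0.06 across genes, so they were not taken as pairs. Depth limits Fas and Perp most, with 6 counts over topotecan for Fas and 80 over DMSO for Perp. Fas passed the low-count filter through its DMSO libraries alone and could hardly be called other than lower.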

Other observations

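Some well-known p53 targets outside the rule for named genes, chosen after their values were seen, also went both ways or did not pass. Bax, the pore-forming protein gene of mitochondrial cell death, had 103 and 106 CPM in topotecan against 97.8 and 93.5 CPM in DMSO, a log2 fold change of 0.13 (95% interval -0.06 to 0.31, edgeR adjusted p = 0.27). Ddb2, a damage sensor that acts with Xpc, had 9.04 and 7.26 CPM in topotecan against 8.05 and 8.22 CPM in DMSO, and the groups overlapped. Gadd45a, a damage-induced growth arrest gene, had 46 and 51 counts in topotecan against 119 and 153 counts in DMSO and fell by 1.63 (SE 0.26, edgeR adjusted p = 0.000231). Plk2, a kinase gene of neurons that p53 induces, had 457 and 483 CPM in topotecan against 365 and 317 CPM in DMSO and rose by 0.46 (SE 0.08, edgeR adjusted p = 0.000663). Btg1, a relative of Btg2, had 7.18 and 6.38 CPM in topotecan against 5.22 and 4.07 CPM in DMSO (log2 fold change 0.54, SE 0.19, edgeR adjusted p = 0.0355).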
